A study of Rattus norvegicus with 300 samples.

Results

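Rats given a probiotic were compared with rats given maltodextrin in the brain region labelled PLC, at the level of gene expression. All 5 libraries labelled PLC and Probiotics were set against all 5 labelled PLC and Maltodextrin, 10 of the 300 libraries in the series. The animals were male Long Evans rats, 60 days old, which drank their treatment from the water bottle for 3 weeks. Maltodextrin, a starch-derived carbohydrate, was given at 10 g/L and is named in the labels as a control of its own beside plain water. The 5 water libraries of PLC (Control) are given as a further point of comparison. The fit also held the 5 PLC libraries each of Desipramine (7.5 mg/kg/day), Bupropion (15 mg/kg/day) and FT, by elimination the fluoxetine group (13 mg/kg/day), all 3 antidepressants. The labels do not say whether the Probiotics rats also received maltodextrin. Punches of frozen sections were pooled by region before extraction, and how many rats made up a pool is not stated. The p-values below therefore measure the spread between libraries, which may be partly technical. No library carries a batch label, so treatment and any batch that follows it cannot be told apart.

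Cortical excitatory neurons release glutamate from synaptic vesicles onto receptors that are held in place by scaffold proteins, and interneurons restrain them with GABA. Keeping membranes charged and vesicles filled uses much ATP, most of it from glycolysis and mitochondrial respiration. The proteasome and chaperones remove or refold damaged proteins. Gut bacteria are widely studied for signals to the brain through immune, metabolic, hormonal and vagal routes, and genes of several of these routes were listed.

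The tissue had the markers of cortex. Slc17a7, the vesicular glutamate transporter of cortical excitatory neurons, stood at 416 ± 22.8 normalised CPM in Probiotics and 353 ± 20.1 in Maltodextrin (SD, n = 5 each). Normalised CPM here means counts divided by the library total times its TMM factor, times 1000000. Tph2, which makes serotonin in raphe neurons, stood at 1.59 and 1.55 CPM, and Pmch, a hypothalamic peptide gene, was at 0 in all 10 libraries. Set against regional averages taken over the remaining treatments, 5 of 5 Probiotics libraries lay nearest to PLC. Of the Maltodextrin libraries, 3 lay nearest to PLC and 2, replicates 3 and 4, nearest to ILC, by correlations of 0.9873 against 0.9867 and 0.9866 against 0.9864.

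Total counts ran from 7706928 to 11392299 in Probiotics and from 8409832 to 13045989 in Maltodextrin. The make-up of the libraries differed between the groups. The 10 most abundant genes took 5.85 to 7.13% of the counts in Probiotics, 9.17 to 10.2% in Maltodextrin and 7.57 to 8.74% in Control. TMM factors ran from 1.016 to 1.09 in Probiotics, from 0.8577 to 0.947 in Maltodextrin and from 0.9396 to 0.9933 in Control. In Probiotics 14882 to 15216 symbols had a count, against 13851 to 14113 in Maltodextrin. On the second principal component of the 30 PLC libraries, the 5 Maltodextrin libraries were the 5 highest, followed by those of Bupropion, and the Probiotics, Control, Desipramine and FT libraries all lay below 0. The part of library make-up in the gene results was not tested.

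**Figure D1:**
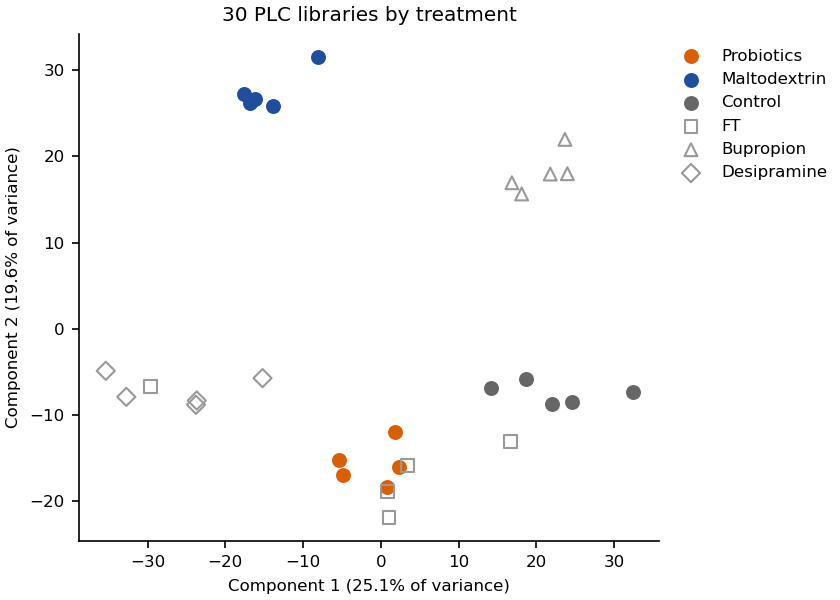
The 30 PLC libraries on their first (x) and second (y) principal components, which hold 25.1% and 19.6% of the variance; each point is a library and colour or shape gives the treatment. Maltodextrin libraries sit at the top left, away from both Probiotics and Control.

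Of 12109 genes tested, 5693 (47%) were called at an adjusted p under 0.05, 3315 higher (27.4%) and 2378 lower (19.6%) in Probiotics. Changes over 2-fold were mostly upward: 480 genes rose (3.96%) and 28 fell (0.231%). All 5 Probiotics values lay above all 5 Maltodextrin values for 2573 genes (21.2%), and below them for 1954 (16.1%). The direction followed the level of a gene. Among 334 genes averaging over 500 CPM, 8.98% rose and 69.5% fell, with a median log2 change of -0.35. Among 2909 genes under 5 CPM, 22.1% rose and 2.03% fell. Scaled by library totals alone, the split moved to 5886 higher and 851 lower, and the median log2 change of all genes to 0.27, against 0.06 under TMM.

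**Figure D2:**
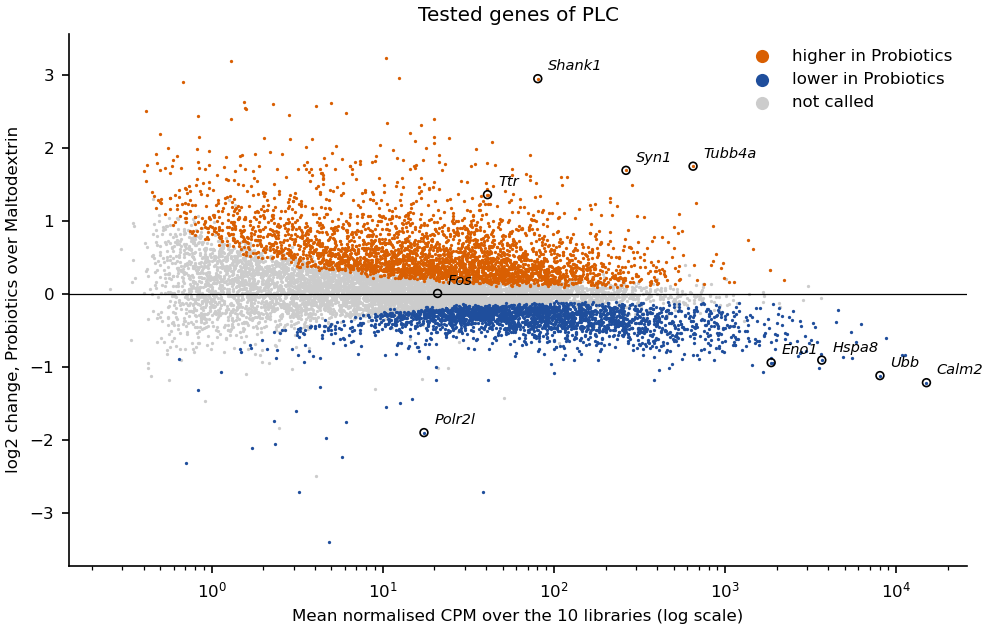
Log2 change of Probiotics over Maltodextrin (y) against the mean level over the 10 libraries (x, log scale) for the tested genes, each point a gene, coloured by call at an adjusted p under 0.05. The most abundant genes, such as Calm2 and Ubb, fell, while the largest rises were at low and middle levels, such as Shank1.

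Shank1, which encodes a scaffold protein of the postsynaptic density, was among the 15 largest rises, counted over called genes with an ordinary symbol, at least 5 CPM and no overlap between the groups. It had 140.5, 132.8, 153.1, 146.8 and 138.3 CPM in the Probiotics libraries, against 19.8, 18.1, 17.7, 18.2 and 17.9 CPM in the Maltodextrin libraries. The groups lay far apart, and the Control libraries, at 95.8 to 109.7 CPM, lay on the side of Probiotics. Its log2 change was 2.95 ± 0.11 (SE, adjusted p = 2.7e-20). Shank3, a relative of Shank1, averaged 8.56 and 2.08 CPM, a change of 2.03. Srcin1, an inhibitor of Src kinase at synapses, rose by 2.21, and Jph4, which ties the endoplasmic reticulum to the neuronal membrane, by 2.10.

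The other genes among these 15 have varied roles. Rnf44, a RING finger gene, rose by 2.96 ± 0.23, averaging 21.99 ± 3.72 CPM in Probiotics and 2.86 ± 0.473 in Maltodextrin. The transcription factors Tox2, Mef2d and Nfix rose by 2.48, 2.34 and 2.09. Bcl9l, a co-activator in Wnt signalling, rose by 2.16 and Nacc1, a transcriptional repressor, by 2.003. Loh12cr1 rose by 2.14, Epn1, an adaptor of endocytosis, by 2.07, and Unc5a, a netrin receptor, by 2.05. Chrm1, the M1 muscarinic acetylcholine receptor of cortex, rose by 1.99, averaging 56.3 ± 5.25 and 14.1 ± 0.92 CPM. All 15 were lower in Maltodextrin than in Control, by 1.54 (Nacc1) to 3.33 (Rnf44) on the log2 scale. Against Control, the Probiotics changes of these 15 ran from -0.72 (Jph4) to 0.48 (Shank1).

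**Figure D3:**
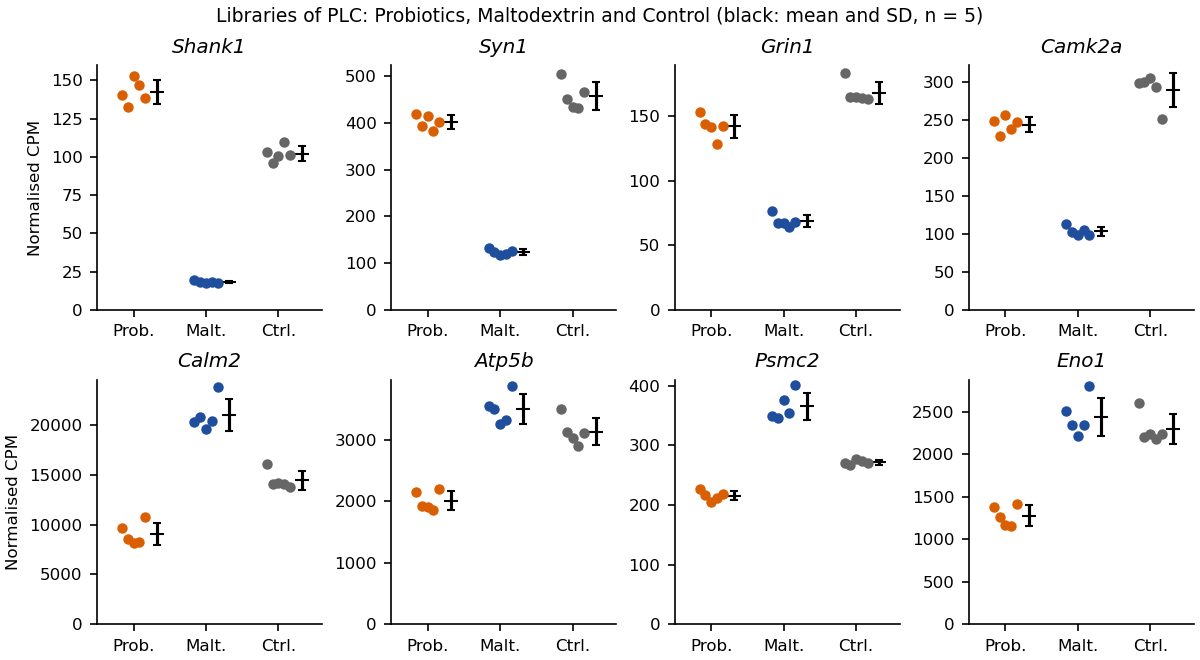
Normalised CPM (y, from 0) of 8 genes in each PLC library, with Probiotics, Maltodextrin and Control along x; points are libraries and black marks give mean and SD (n = 5). In the upper row Maltodextrin stands low and the other groups high, and in the lower row Probiotics stands lowest.

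Most genes of the synaptic vesicle and its release machinery rose: 16 of 22 rose and 4 fell, with a median log2 change of 0.73, against 0.06 over all genes tested. The counts of this and every later list are to be read beside the shares over all genes, 27.4% higher and 19.6% lower. Syn1, synapsin 1, which tethers vesicles, had the smallest p of all genes named for rising. It had 420, 393, 415, 383 and 402 CPM in Probiotics, against 131.5, 125, 117, 121 and 126 CPM in Maltodextrin. The groups did not overlap, and Control lay at 432 to 504 CPM. The log2 change was 1.70 ± 0.05 (SE, adjusted p = 1.1e-21). Bsn, a scaffold of the release site, rose by 0.78 and Unc13a, which primes vesicles for fusion, by 1.24.

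Not every vesicle gene moved that way. The 4 that fell were Snap25, Rab3a, Sh3gl2 and Syt4. Here and below, genes that make up such a small count, together with Htr6, Htr4, Wfs1, Sulf1, Syt6, Calm3, Camk2b, Egr3 and Sik1, were singled out after their values were seen. Snap25, the SNARE protein of the plasma membrane, averaged 5334 ± 236 CPM in Probiotics and 7082 ± 229 in Maltodextrin, a log2 change of -0.41. Rab3a, Sh3gl2 and Syt4 had changes of -0.31, -0.18 and -0.12. Scaled by library totals alone, Sh3gl2 and Syt4 turned to 0.03 and 0.08, neither past the threshold, and Syt4 turned to 0.03 with Maltodextrin and Control pooled. Rab3a lost its call without Probiotics replicate 2, 3 or 4 or Maltodextrin replicate 1 or 5 (edgeR adjusted p = 0.057 to 0.097). Syt4 lost it without Probiotics replicate 1 or 3 or Maltodextrin replicate 3 (adjusted p = 0.056 to 0.079). Pianp, another of the genes with the smallest p, averaged 116 ± 2.97 and 40.5 ± 2.56 CPM, and Spata2L averaged 33.2 ± 1.43 and 9.39 ± 0.726 CPM.

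The promoters below belong to the called member with the smallest p, among those with a RefSeq promoter, of each of 4 lists: vesicle release (Syn1), ionotropic glutamate receptors (Grin1), respiration (Cycs) and proteasome (Psmc2). Syn1 and Grin1 rose, and Cycs and Psmc2 fell. Each window runs from 250 bases before to 50 after the RefSeq start in GRCr8. Capitals mark the GC box GGGCGG or its reverse complement CCGCCC, which Sp factors bind, and the cyclic AMP response element TGACGTCA, read on both strands. Of 9727 tested genes with such a window, 61.4% held the GC box and 3.24% the response element. Syn1 held both motifs, Grin1 the GC box, and neither was found in the windows of Cycs and Psmc2.
Syn1, chrX:3725495-3725794, plus strand: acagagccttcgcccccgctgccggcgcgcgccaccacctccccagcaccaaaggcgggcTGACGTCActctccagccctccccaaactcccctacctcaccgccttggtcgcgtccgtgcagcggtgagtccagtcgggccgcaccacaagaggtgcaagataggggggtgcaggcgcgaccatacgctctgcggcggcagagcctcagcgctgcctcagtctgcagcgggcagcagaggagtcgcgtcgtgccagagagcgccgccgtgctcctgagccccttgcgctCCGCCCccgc
Grin1, chr3:28528705-28529004, minus strand: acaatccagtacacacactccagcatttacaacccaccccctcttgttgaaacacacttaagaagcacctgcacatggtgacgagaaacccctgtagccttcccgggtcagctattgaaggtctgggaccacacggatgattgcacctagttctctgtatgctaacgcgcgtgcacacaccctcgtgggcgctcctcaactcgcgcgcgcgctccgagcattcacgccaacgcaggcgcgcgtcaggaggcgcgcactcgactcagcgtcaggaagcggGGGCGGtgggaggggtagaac
Cycs, chr4:80984718-80985017, minus strand: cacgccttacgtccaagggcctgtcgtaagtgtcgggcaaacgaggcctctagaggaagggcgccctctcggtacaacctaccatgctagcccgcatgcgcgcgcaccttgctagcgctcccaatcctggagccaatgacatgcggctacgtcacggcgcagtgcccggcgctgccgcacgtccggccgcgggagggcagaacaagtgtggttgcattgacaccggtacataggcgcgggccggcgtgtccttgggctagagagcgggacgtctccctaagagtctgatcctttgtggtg
Psmc2, chr4:14162341-14162640, minus strand: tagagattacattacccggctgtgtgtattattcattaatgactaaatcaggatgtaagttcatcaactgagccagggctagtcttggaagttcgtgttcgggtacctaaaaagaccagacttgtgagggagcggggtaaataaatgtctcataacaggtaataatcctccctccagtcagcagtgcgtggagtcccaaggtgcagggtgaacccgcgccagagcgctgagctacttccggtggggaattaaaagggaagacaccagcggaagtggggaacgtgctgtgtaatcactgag
A match describes these letters and is not a measured binding site.

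Ionotropic glutamate receptor genes rose in 9 of 16 cases and fell in 1, with a median log2 change of 0.45. Grin1, the obligatory subunit of NMDA receptors, had 153, 144, 142, 128 and 142 CPM in Probiotics, against 76.2, 67.5, 66.9, 63.9 and 68.0 CPM in Maltodextrin. No Probiotics library was as low as any Maltodextrin library, and the change was 1.05 ± 0.09 (SE, adjusted p = 3.3e-11). Grin2b, a subunit with slow kinetics, averaged 60.9 ± 2.80 and 38.3 ± 1.91 CPM, and at 42.0 CPM in Control it was higher in Probiotics than in both other groups. The kainate receptor gene Grik3 rose by 1.40. The member that fell was Gria2, the AMPA receptor subunit that limits calcium entry, at 1573 ± 52.5 CPM in Probiotics and 1984 ± 32.7 in Maltodextrin. Its call was lost under library totals alone, at -0.13 (adjusted p = 0.15).

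Metabotropic glutamate receptor genes rose in 6 of 8 cases and fell in 0, and monoamine receptor genes rose in 11 of 20 and fell in 0. Over all genes tested 27.4% rose and 19.6% fell. Among genes under 5 CPM, where Grm4, Htr6 and Htr4 lie, 22.1% rose and only 2.03% fell, so a lack of falls is common at that level. Grm2, a presynaptic brake on glutamate release, averaged 17.8 ± 1.60 and 8.83 ± 0.762 CPM, a log2 change of 1.01. Grm4 rose by 1.92 from a low level, at 4.05 and 1.05 CPM. The serotonin receptor genes Htr6 and Htr4 averaged 2.59 and 1.65 CPM in Probiotics and 1.38 and 0.868 CPM in Maltodextrin. These 2 lists moved with the choices made: the metabotropic count was 3 without Maltodextrin replicate 2, 4 or 5 and without replicates 3 and 4 together. The monoamine receptor count was 7 without Maltodextrin replicate 2 and 3 among genes averaging at least 5 CPM.

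Potassium and HCN channel genes rose in 18 of 27 cases and fell in 1, and sodium and calcium channel genes rose in 14 of 23 and fell in 1. The median log2 changes were 0.32 and 0.33. Of the 23 sodium and calcium channel genes, 22 rose under library totals alone. Kcnj6, the GIRK2 channel opened by G protein-coupled receptors, had 146, 146, 161, 156 and 147 CPM in Probiotics, against 84.6, 86.5, 93.3, 88.6 and 87.2 CPM in Maltodextrin. Its Control libraries, at 91.8 to 104.9 CPM, lay near Maltodextrin and not near Probiotics. Among calcium channel genes, Cacna1e averaged 97.9 ± 6.23 and 54.9 ± 5.41 CPM, with 61.3 in Control, and Cacna1a and Cacnb1 rose by 0.75 and 0.9985. Scn8a, the main axonal sodium channel, rose by 0.68. The genes that fell were Kcnk1, by 0.28, and Cacna2d3, by 0.20 on the log2 scale. Under library totals alone Kcnk1 stood at -0.07 and Cacna2d3 at 0.00, neither called.

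GABA receptor genes split, with 7 of 15 higher and 5 lower. Gabra2 and Gabra3, alpha subunits of the channel, rose by 0.40 and 0.53, and at 176 and 57.3 CPM they were also above Control, at 115 and 38.5 CPM. Gabrb2 rose by 0.35 with overlapping ranges, and Gabbr2, of the metabotropic GABA-B receptor, by 0.24. Gabrb1 fell by 0.21, Gabra5 by 0.18 and Gabrd by 0.16. Under library totals alone Gabra5 and Gabrd turned to 0.03 and 0.05 and Gabrb1 stood at 0.00, none of them called. With Maltodextrin and Control pooled, Gabrb1 and Gabra5 turned to 0.07 and 0.05. Gabrd lost its call without Probiotics replicate 1, 2 or 4 or Maltodextrin replicate 1 (edgeR adjusted p = 0.051 to 0.086). In all, 1 of the 15 fell under library totals alone and 2 with the controls pooled.

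Immediate early genes, switched on within minutes of neuronal activity, rose in 12 of 25 cases and fell in 2. Egr1 had 156, 158, 178, 160.2 and 174 CPM in Probiotics, against 54.9, 54.5, 52.5, 58.3 and 51.7 CPM in Maltodextrin, and 150.9 to 193 CPM in Control. Its log2 change was 1.60 ± 0.11 (SE, adjusted p = 1.3e-13). Egr3 and Sik1, at 5.47 and 3.49 CPM in Probiotics and 1.67 and 0.906 CPM in Maltodextrin, rose by 1.71 and 1.95, Nr4a3 by 0.59 and Jun by 0.43. Arc, which traffics AMPA receptors, averaged 17.9 ± 2.12 CPM in Probiotics and 11.03 ± 1.31 in Maltodextrin, with both groups below the 32.5 CPM of Control. With Maltodextrin and Control pooled its change turned to -0.08. Fos averaged 20.9 ± 1.16 and 20.8 ± 3.47 CPM and did not pass the test (adjusted p = 0.93). The 2 that fell were Dusp1 and Dusp6, phosphatases of MAP kinases, by 0.24 and 0.26, and both lost the call under library totals alone.

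Among genes of calcium signalling, the CaM kinase and calmodulin genes named here moved in opposite directions. Camk2a, the alpha subunit of CaM kinase II, had 248.5, 229, 256, 239 and 248 CPM in Probiotics, against 113, 103, 98.5, 105 and 98.3 CPM in Maltodextrin. Its log2 change was 1.24 ± 0.09 (SE, adjusted p = 9.2e-13). Camk2b, the beta subunit, rose by 0.54. The calmodulin genes Calm2 and Calm3 fell by 1.21 and 0.56. Calm2 had 9680, 8585, 8141, 8202 and 10710 CPM in Probiotics, against 20260, 20800, 19610, 20440 and 23770 CPM in Maltodextrin. Control stood between them at 13770 to 16110 CPM. Over the whole list of calcium kinases and phosphatases, 7 of 20 rose and 7 fell, beside 27.4% higher and 19.6% lower over all genes. Tubb4a, a neuronal and oligodendrocyte tubulin, averaged 1002 ± 86.7 and 297 ± 17.1 CPM, a rise of 1.75, and Mapt, the tau gene, rose by 0.55. The tubulin and neurofilament list had 5 of 20 higher and 8 lower, or 10 and 4 under library totals alone. Over all genes 27.4% rose, 19.6% fell, and 69.5% of those over 500 CPM fell.

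Nuclear genes of oxidative phosphorylation fell together: 27 of 27 fell, with a median log2 change of -0.55. Over all genes tested 19.6% fell. The share was 69.5% among genes averaging over 500 CPM, where Atp5b and Cycs lie, and 38.6% at 50 to 500 CPM. Atp5b, the catalytic beta subunit of ATP synthase, had 2150, 1929, 1902, 1854 and 2195 CPM in Probiotics, against 3551, 3498, 3253, 3319 and 3881 CPM in Maltodextrin. The groups did not overlap, and the change was -0.80 ± 0.07 (SE, adjusted p = 5.1e-11). Sdhc, of complex II, averaged 297 ± 13.2 and 463 ± 35.5 CPM, and Cycs, cytochrome c, 872 ± 48.3 and 1414 ± 81.8 CPM. Ndufa8 and Ndufs6, both of complex I, fell by 1.04 and 1.18. Against Control, 19 of the 27 were lower in Probiotics and 1 higher, while 17 were higher and 0 lower in Maltodextrin. Under library totals alone 20 of 27 still fell, and 26 fell without Maltodextrin replicates 3 and 4.

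Glycolysis genes fell in 12 of 19 cases and rose in 2, with a median log2 change of -0.39. Over all genes tested 19.6% fell, and 69.5% of those averaging over 500 CPM, where Eno1 and Ldha lie. Eno1, enolase 1, had 1382, 1256, 1164, 1157 and 1419 CPM in Probiotics, against 2510, 2338, 2219, 2337 and 2796 CPM in Maltodextrin. Control, at 2183 to 2601 CPM, lay with Maltodextrin. Its change was -0.94 ± 0.12 (SE, adjusted p = 1.8e-07). Ldha, which makes lactate, averaged 1301 ± 123 and 2383 ± 264 CPM, and Pgk1, an ATP-yielding kinase, fell by 0.54. The 2 that rose were Hk1, the brain hexokinase, by 0.40, and Pfkl, a phosphofructokinase, by 0.57. With Maltodextrin and Control pooled Hk1 turned to -0.07 and Pfkl lost its call. Against Control, 17 of the 19 were lower in Probiotics and 0 higher, and 8 were lower and 1 higher in Maltodextrin.

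Proteasome genes fell in 23 of 27 cases and rose in 0, with a median log2 change of -0.42. Psmc2, an ATPase of the regulatory particle, had 226, 217, 204, 212 and 219 CPM in Probiotics, against 349, 346, 376.5, 353.5 and 401 CPM in Maltodextrin. The change was -0.76 ± 0.05 (SE, adjusted p = 5.5e-14), and Control lay between at 267 to 278 CPM. Psmb3 and Psmc4 fell by 0.83 and 0.57. Under library totals alone 16 of the 27 fell, and 24 without Maltodextrin replicates 3 and 4. Among all genes of 50 to 500 CPM, where Psmc2 lies, 38.6% fell. Ubb, a polyubiquitin gene, averaged 5078 ± 824 and 10990 ± 895 CPM, and Skp1, of the SCF ubiquitin ligases, 1304 ± 68.4 and 2513 ± 167 CPM.

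Chaperones and the translation machinery had more falls than rises. Over all genes tested 27.4% rose and 19.6% fell. The share that fell was 38.6% among genes of 50 to 500 CPM and 69.5% among those over 500 CPM, where Hspa8 lies. Heat shock and chaperone genes fell in 10 of 22 cases and rose in 2. Hspa8, the constitutive Hsc70, averaged 2560 ± 170 CPM in Probiotics and 4784 ± 285 in Maltodextrin, a fall of 0.90. The 2 that rose were Hspa4 and Hspb1, by 0.48 and 0.51. Genes of the unfolded protein response fell in 13 of 22 cases and rose in 3. The ER proteins Pdia6 and Hspa5 fell by 0.62 and 0.36, and Atf6, Sel1l and Hyou1 rose by 0.34, 0.38 and 0.28. Translation initiation genes fell in 12 of 21 cases, among them Eif4a1, the helicase of the cap complex, by 0.82. The 1 that rose was Eif4ebp2, an inhibitor of cap binding, by 1.38. Cytosolic ribosomal protein genes fell in 14 of 35 cases and rose in 0, with Rpl3 and Rpl5 lower by a log2 change of -0.53 and -0.37. Their count fell to 6 when Maltodextrin and Control were pooled. These counts rest on the scaling: under library totals alone 1 chaperone gene, 3 genes of the unfolded protein response, 5 of translation initiation and 9 of ribosomal proteins fell.

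The remaining genes with the largest falls or the smallest p were a mixed set. Stmn1 and Stmn3, which destabilise microtubules, fell by 1.01 and 1.06. Sep15, Sepw1 and Gpx4, all selenoprotein genes, fell by 1.18, 1.08 and 1.01. Atp6v1c1 and Atp6v1d, subunits of the proton pump that fills vesicles and acidifies lysosomes, fell by 0.86 and 0.79, and Ngdn by 0.77. Lower-abundance genes among the falls were Nhp2, Polr2l, Tbcb, Pdcd5, Rps19 and Ppwd1, with changes of -2.22 to -0.996. In these 6 genes the Control libraries were not of one level. Polr2l, a subunit shared by RNA polymerases, had 5.17, 4.48, 8.70, 6.82 and 11.8 CPM in Probiotics, against 23.3, 25.5, 24.9, 30.8 and 32.2 CPM in Maltodextrin. In Control it had 9.79, 17.2, 16.02, 6.54 and 4.42 CPM, with replicates 2 and 3 nearest to Maltodextrin. Genes with near-identical copies elsewhere, such as those of ribosomal proteins, ubiquitin and calmodulin, are uncertain where counting could split their reads.

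**Figure D4:**
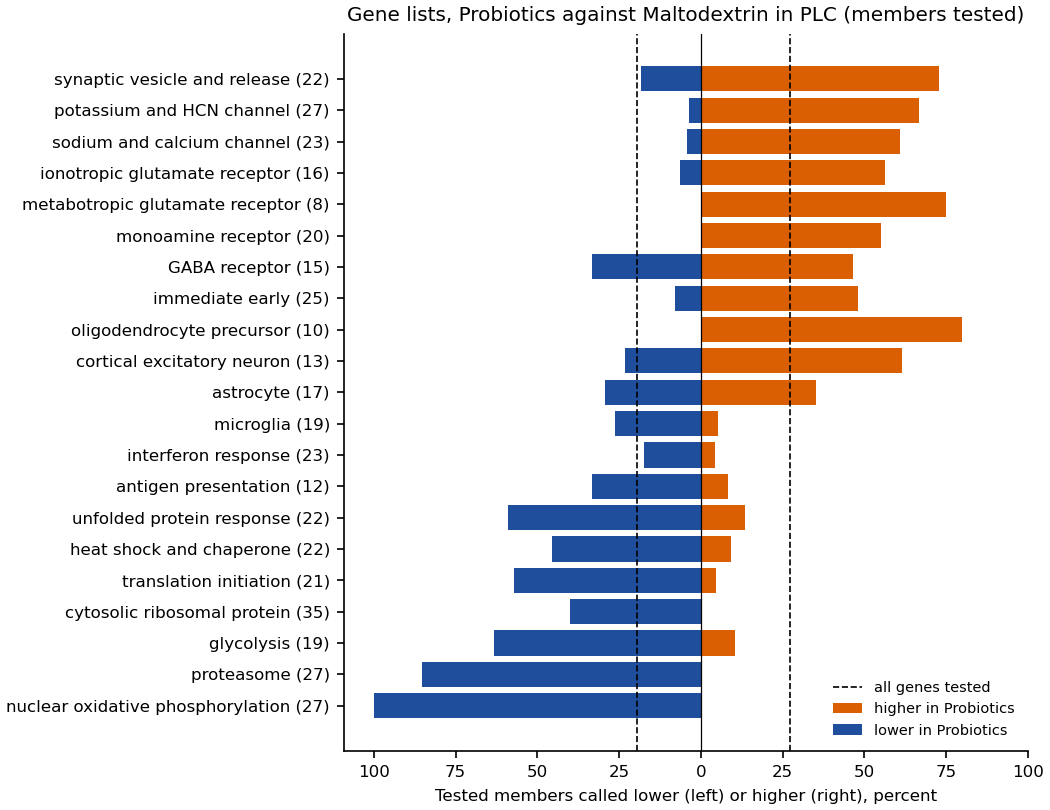
Share of the tested members of 21 gene lists (rows, number tested in brackets) called higher (right, orange) or lower (left, blue) in Probiotics than in Maltodextrin, in percent; dashed lines give the shares over all genes tested, 27.4% higher and 19.6% lower. Release, channel, glutamate receptor and monoamine receptor lists lie mostly to the right, and respiration, proteasome and glycolysis mostly to the left. GABA receptors lie on both sides.

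Markers of most cortical cell types moved in both directions, and those of oligodendrocyte precursors in 1. In bulk punches, fewer cells of a type and less RNA per cell cannot be told apart. Of 13 markers of cortical excitatory neurons, 8 rose and 3 fell, and their summed level was 2962 to 3120 CPM in Probiotics and 2745 to 2936 in Maltodextrin. Tbr1, a transcription factor of these neurons, averaged 18.8 ± 0.770 and 9.11 ± 0.956 CPM, and Nrgn, a calmodulin-binding protein of dendrites, 414 ± 33.3 and 196 ± 10.6 CPM. The 3 that fell were Neurod6, by 0.43, Sv2b, by 0.28, and Lmo4, by 0.18, the last of which turned to 0.03 under library totals alone. Upper-layer markers rose in 7 of 11 cases, such as Cux2 by 1.28 and Wfs1 by 1.19. Calb1 and Lamp5 fell, by 0.48 and 0.22. Deep-layer markers rose in 7 of 16 cases, such as Sulf1 and Syt6 by 0.49 and 0.54, while Pcp4 and Crym fell by 0.44 and 0.33. The summed level of the deep-layer markers went the other way, at 2220 to 2336 CPM in Probiotics, 2644 to 2802 in Maltodextrin and 2120 to 2192 in Control. Most of these sums was Pcp4, at 957 CPM in Probiotics and 1299 in Maltodextrin, and Crym, at 545 and 684 CPM. The gap between the groups was larger in Pcp4 and Crym together than in the sum. Of the 16, 11 rose under library totals alone.

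Interneuron markers split evenly, with 4 of 17 higher and 4 lower, beside 27.4% higher and 19.6% lower over all genes. Gad1, which makes GABA, averaged 169 ± 8.40 and 170.4 ± 1.64 CPM and did not pass the test (adjusted p = 0.87). It was called higher under library totals alone, at 0.20 (edgeR adjusted p = 0.0040). With Maltodextrin and Control pooled it was called lower, at -0.10 (edgeR adjusted p = 0.032). Pvalb, the calcium buffer of fast-spiking cells, averaged 191 ± 5.68 and 261 ± 10.4 CPM, a fall of 0.45, and Cort, Calb2 and Gad2 fell by 0.59, 0.24 and 0.21. Slc32a1, Lhx6 and Reln rose by 0.37, 0.37 and 0.24. Calb2 lost its call without Probiotics replicate 2 or 4 (edgeR adjusted p = 0.078 and 0.094), and Lhx6 without replicate 3 or 5 of Probiotics or 2 or 5 of Maltodextrin (0.058 to 0.11). The summed level of 18 interneuron markers was 1399 to 1504 CPM in Probiotics and 1421 to 1557 in Maltodextrin.

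Oligodendrocyte precursor markers rose in 8 of 10 cases and fell in 0, with a median log2 change of 0.45. Their summed level was 161.3 to 174 CPM in Probiotics, 123 to 133 in Maltodextrin and 177 to 187 in Control. Gpr17, a receptor of differentiating precursors, had 8.10, 8.41, 7.01, 7.53 and 8.86 CPM in Probiotics, against 2.06, 2.14, 2.02, 2.76 and 1.54 CPM in Maltodextrin. Sox10 and Olig1, transcription factors of the lineage, rose by 1.40 and 0.42. When Maltodextrin and Control were pooled, 4 of the 10 rose. Of 18 myelin markers, 6 rose and 4 fell, beside 27.4% higher and 19.6% lower over all genes, and 10 rose under library totals alone. Mag, an adhesion molecule of myelin, and Hapln2, of the node of Ranvier, rose by 1.15 and 1.29, and Opalin, Mal and Cnp fell by 0.39, 0.40 and 0.29.

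Of 17 astrocyte markers 6 rose and 5 fell, or 12 and 3 under library totals alone, beside 27.4% higher and 19.6% lower over all genes. Slc1a2, the main glutamate transporter, rose by 0.65, at 194 ± 6.51 CPM in Probiotics and 124 ± 8.54 in Maltodextrin. The 5 that fell were S100b, by 0.63, Glul, which turns glutamate into glutamine, by 0.40, Aldoc, by 0.34, Gjb6, by 0.28, and Slc1a3, by 0.17. Slc1a3 turned to 0.04 under library totals alone. The summed astrocyte level was 6552 to 7151 CPM in Probiotics, 8155 to 9163 in Maltodextrin and 8192 to 8934 in Control. S100b alone made up 3620 to 4440 CPM of the Maltodextrin sums, so the sum rests largely on S100b and does not describe the markers that rose. Microglia markers fell in 5 of 19 cases and rose in 1, beside 19.6% lower and 27.4% higher over all genes. Their sums were 1091 to 1181 CPM in Probiotics, 1396 to 1596 in Maltodextrin and 1323 to 1369 in Control. Among those that fell were the complement genes C1qa, C1qb and C1qc, by 0.39, 0.57 and 0.30, and the lysosomal protease gene Ctss, by 0.64. Ctss alone made up 586 to 700 CPM of the Maltodextrin sums, so these sums rest largely on Ctss, and 13 of the 19 markers were not called. C1qb had 69.8, 67.9, 62.4, 70.9 and 73.2 CPM in Probiotics, against 108.9, 102, 97.4, 94.0 and 109.3 CPM in Maltodextrin. Siglec5 rose by 0.53. C1qc lost its call without Probiotics replicate 2 or 4 or Maltodextrin replicate 5 (edgeR adjusted p = 0.077 to 0.084), and Siglec5 without Probiotics replicate 3 (0.052). Of the 19 microglia markers 2 fell under library totals alone and 9 when the 10 libraries were fitted alone. Among lysosomal genes, 11 of 23 fell (6 under library totals alone) and 6 rose, a share of rises near the 27.4% of all genes. Over all genes 19.6% fell, and 38.6% of those of 50 to 500 CPM. The proteases Ctsf and Ctsl were lower by 0.59 and 0.39.

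Summed markers of several other tissues were higher in Probiotics than in Maltodextrin, with no overlap. The 16 markers of choroid plexus and ependyma summed to 112.7 to 125 CPM in Probiotics, 86.2 to 98.7 in Maltodextrin and 77.6 to 87.9 in Control, with Otx2 at 0 in all 10 libraries. Ttr, transthyretin, which carries thyroid hormone and is abundant in choroid plexus, had 53.0, 57.0, 63.1, 62.3 and 58.9 CPM in Probiotics, against 29.8, 22.5, 19.7, 21.0 and 21.1 CPM in Maltodextrin, and 12.8 to 18.4 CPM in Control. It rose by 1.36 ± 0.15 (SE, adjusted p = 4.5e-09), and 1 of the 8 tested markers of that list rose and 1 fell. The gap between Probiotics and Maltodextrin was larger in Ttr alone than in the sum, so the sum does not describe the other markers. Oxt, a hypothalamic peptide gene, averaged 2.63 ± 0.401 CPM in Probiotics and 0.429 ± 0.140 in Maltodextrin. Markers of meningeal fibroblasts and collagen summed to 153.7 to 165.4 CPM in Probiotics, 123.5 to 143.3 in Maltodextrin and 168.1 to 179.4 in Control. Of the 14 tested, 5 rose and 0 fell, among them Igf2, a growth factor of meninges and vessels, by 0.56. Scaled by library totals alone 8 of them rose, and with Maltodextrin and Control pooled 1. Markers of striatal projection neurons summed to 392.8 to 411.8 CPM in Probiotics, 366.3 to 381.5 in Maltodextrin and 420.9 to 450.2 in Control, and 7 of 15 rose and 1 fell. Preoptic and hypothalamic markers summed to 10.92 to 13.03 CPM in Probiotics, 6.098 to 8.177 in Maltodextrin and 7.662 to 13.48 in Control, and dentate granule cell markers to 57.69 to 70.35, 43.94 to 51.11 and 49.22 to 58.62 CPM. Of these, 3 of 8 preoptic and 2 of 4 dentate markers rose and 0 fell. Most of the dentate gap lay in Pdzd2, at 23.9 CPM in Probiotics and 9.59 in Maltodextrin. The part of such tissue in the results was not tested.

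Genes of immunity and microbial sensing moved in both directions. Antigen presentation genes fell in 4 of 12 cases and rose in 1, beside 19.6% lower and 27.4% higher over all genes. Cd74, the invariant chain of class II molecules, averaged 11.7 ± 1.70 and 15.6 ± 1.45 CPM, against 21.5 in Control. RT1-A1, RT1-A2 and B2m, of class I, fell by 0.42, 0.33 and 0.15, and Tapbp, which loads class I molecules, rose by 0.60. B2m turned to 0.06 under library totals alone and to 0.00 with Maltodextrin and Control pooled. RT1-A1 lost its call in 6 of 10 fits that left out 1 library, those without Probiotics replicate 1, 2, 4 or 5 or Maltodextrin replicate 1 or 5 (edgeR adjusted p = 0.053 to 0.097). Interferon response genes fell in 4 of 23 cases and rose in 1, a share of falls near the 19.6% of all genes. Those were Usp18, Isg15, Ifitm2 and Ifi27, by 0.75, 0.45, 0.20 and 0.20, and Ifit1, at 1.197 CPM in Probiotics and 0.434 in Maltodextrin, rose. Under library totals alone Ifi27 and Ifitm2 turned to 0.01 and 0.00, and Ifi27 turned to 0.04 with Maltodextrin and Control pooled. Ifitm2 lost its call without Probiotics replicate 1, 3 or 5 or Maltodextrin replicate 3 (edgeR adjusted p = 0.056 to 0.15). Of 21 genes of microbial sensing and cytokines, 4 rose and 1 fell, both shares below those of all genes. Cx3cl1, the neuronal chemokine read by microglia, averaged 455 ± 31.5 and 218 ± 11.2 CPM, a log2 change of 1.06. Rela, of NF-kB, Il1r1 and Tnfrsf1a rose by 0.60, 0.78 and 0.53, and Cxcl12 fell by 0.12 but turned to 0.09 under library totals alone and to 0.03 with the controls pooled. Cxcl12 lost its call without Probiotics replicate 1, 2 or 3 or Maltodextrin replicate 3 (edgeR adjusted p = 0.052 to 0.078). Il1r1 lost its call without Probiotics replicate 1, 2 or 5 or Maltodextrin replicate 1, 3 or 4 (0.055 to 0.12), and under DESeq2, with no filter and in the 10 libraries alone.

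Genes of the stress hormone axis and of neurotrophins had mixed values. Glucocorticoid response genes rose in 7 of 20 cases and fell in 5, beside 27.4% higher and 19.6% lower over all genes. Without Maltodextrin replicate 2 only 3 rose, and without replicate 5 only 4. With library totals alone 13 rose and 3 fell. Per1, also a clock gene, averaged 12.5 ± 0.577 and 4.68 ± 0.634 CPM, and Zbtb16 rose by 1.13. The 5 that fell were Tsc22d3, by 0.59, Fkbp4, by 0.51, Hsd11b1, by 0.37, Gjb6, by 0.28, and Fam107a, by 0.17. Fam107a turned to 0.04 under library totals alone. Fkbp5, a standard marker of glucocorticoid action, averaged 19.7 ± 0.651 and 19.3 ± 1.05 CPM (adjusted p = 0.78), and Crh 14.4 ± 0.994 and 13.0 ± 1.14 CPM (adjusted p = 0.19). Under library totals alone Fkbp5 was called higher, at 0.23 (edgeR adjusted p = 0.0054). Nr3c1, the glucocorticoid receptor, averaged 131 ± 6.50 and 118 ± 4.66 CPM and missed the threshold (adjusted p = 0.051), with 94.6 CPM in Control. Without Probiotics replicate 1 it passed, at 0.18. Bdnf fell by 0.19, at 108 ± 4.73 CPM in Probiotics and 124 ± 4.59 in Maltodextrin, but turned to 0.01 under library totals alone. Ntrk2, the Bdnf receptor, rose by 0.40, at 754 ± 37.4 and 570.1 ± 16.6 CPM, with 562 in Control. Igf1r, Ngfr and Fgf2 rose by 0.997, 1.30 and 0.85, and Nrn1 fell by 0.52. Ngfr lost its call without Probiotics replicate 3 or 4 or Maltodextrin replicate 2, 4 or 5 (edgeR adjusted p = 0.066 to 0.15), and Fgf2 without Probiotics replicate 3 (0.074). Clock genes rose in 7 of 17 cases, Nr1d1 by 1.36, and the 1 that fell was Nr1d2, by 0.21. The clock count was 4 under the RLE scaling, under DESeq2 and without Maltodextrin replicate 2, 4 or 5, and 3 without replicates 3 and 4 together, but 12 under library totals alone.

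The Control libraries place the groups further, though all these contrasts share libraries with one another. Maltodextrin against Control had 2763 genes higher (22.8%) and 3179 lower (26.3%) among the same 12109. Over 2-fold, 30 were higher (0.248%) and 677 lower (5.59%). Probiotics against Control had 2824 higher (23.3%) and 2811 lower (23.2%), with 66 (0.545%) and 50 (0.413%) over 2-fold. For vesicle and release genes, 7 of 22 were higher and 8 lower in Probiotics than in Control, and 3 were higher and 15 lower in Maltodextrin than in Control. For proteasome genes the counts were 1 higher and 14 lower of 27 in Probiotics, and 21 higher and 1 lower in Maltodextrin. For cytosolic ribosomal protein genes they were 16 higher and 1 lower of 35 in Probiotics, and 27 higher and 0 lower in Maltodextrin. Potassium and HCN channel genes had 19 of 27 higher and 1 lower in Probiotics, and 8 higher and 10 lower in Maltodextrin. With Maltodextrin and Control pooled as the control, 101 genes rose and 14 fell over 2-fold in Probiotics.

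The same comparison in CGC and ILC, the regions whose mean profiles came next to PLC, showed what was shared. In CGC 1899 genes were higher (16%) and 1917 lower (16.1%) in Probiotics than in Maltodextrin. In ILC 3186 were higher (26.1%) and 3013 lower (24.6%). Of genes higher in PLC, 1175 were also higher in CGC, which is 35.8% of the PLC list and 62.1% of the CGC list, and 221 were lower there. In ILC 2112 were also higher, 64.2% of the PLC list and 66.4% of the ILC list, and 87 were lower. Of genes lower in PLC, 710 were lower in CGC (29.9% and 37.1% of the lists) and 1731 in ILC (72.8% and 57.7%), while 182 were higher in CGC (7.67% of the PLC list) and 101 in ILC (4.25%). The effect differed between PLC and CGC for 2533 genes more positive (21.5%) and 2089 more negative (17.8%) in PLC. Between PLC and ILC it differed for 1377 more positive (11.6%) and 1668 more negative (14%).

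**Figure D5:**
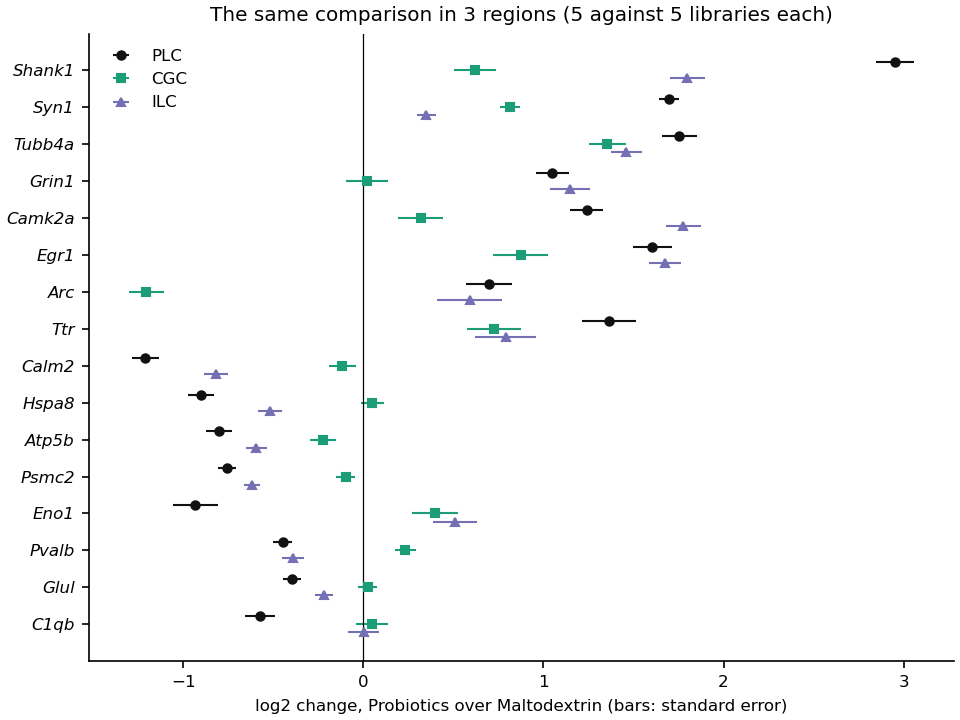
Log2 change of Probiotics over Maltodextrin (x) with its standard error for 16 genes (rows) in PLC, CGC and ILC, 5 against 5 libraries in each region. Shank1 is farthest right in PLC, and Eno1 lies left of 0 in PLC and right of 0 elsewhere.

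Shank1 rose by 0.62 in CGC and 1.80 in ILC, less than in PLC by 2.31 ± 0.07 and 1.13 ± 0.08 (SE). Syn1 rose by 0.81 and 0.35, less than in PLC by 0.86 ± 0.06 and 1.32 ± 0.06. Grin1 had a change of 0.02 in CGC, not called, and rose by 1.15 in ILC. Camk2a rose more in ILC, by 1.78, than in PLC, and the difference passed the test (adjusted p = 4.4e-08). Arc moved in opposite directions, with a change of -1.21 in CGC, a difference of 1.87 ± 0.11, and rose by 0.59 in ILC. Ttr rose in all 3 regions, by 0.73 in CGC and 0.79 in ILC.

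Energy and protein-turnover genes were compared between the regions in the same way. Of 27 oxidative phosphorylation genes, 8 fell and 0 rose in CGC, and 24 fell and 1 rose in ILC. The effect was more negative in PLC than in CGC for 22 of them and than in ILC for 8, and more positive for 0 and 2. Of 27 proteasome genes, 4 fell and 6 rose in CGC and 21 fell and 1 rose in ILC, and the effect was more negative in PLC for 25 and 10. Glycolysis genes rose in 6 of 18 cases and fell in 1 in CGC, and rose in 8 and fell in 6 in ILC. The effect on glycolysis genes was more negative in PLC for 13 against CGC and 16 against ILC. Eno1 rose by 0.40 in CGC and 0.51 in ILC, so that its effect in PLC was lower by 1.36 ± 0.08 and 1.47 ± 0.07 on the log2 scale (SE). Tubulin and neurofilament genes rose in 11 of 20 cases in CGC and in 11 in ILC. Myelin markers rose in 14 of 18 cases in ILC, and the effect on 12 of them was more negative in PLC.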

How the data were processed

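Gene expression was measured by RNA sequencing of pooled brain punches, and the authors deposited whole-number read counts per gene symbol for 300 libraries. Per the submitters' processing notes, FastQC, STAR, HTSeq and the build rn6 were used, with versions and counting settings not given in the sources used here. Genes were tested with edgeR 4.0.16 in R 4.3.3 (TMM scaling, filterByExpr, quasi-likelihood F test, Benjamini-Hochberg adjustment over all genes tested) on the 30 PLC libraries of all 6 treatments together, which share 1 estimate of spread. DESeq2 1.42.0 was an alternative. Differences between regions were tested as an interaction over 20 libraries. Each replicate of each treatment had its own term, because its libraries of different regions may come from the same rats. Whether they do was not tested. No 2 libraries compared agreed within sampling noise: over 20 pairs the smallest ratio of chi-square to its degrees of freedom was 2.198.

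The gene lists and the naming rule were chosen with earlier results of these data known. Named genes were the 15 largest changes in each direction among called genes without overlapping ranges and averaging at least 5 CPM, the 5 with the smallest p in each direction, up to 4 called members per list with the smallest p, and a fixed set of neural and stress genes. Promoters are from RefSeq (GRCr8). Of the gene symbols tested, 11227 matched a current and 706 an older RefSeq symbol. Some genes are not reported here.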

Additional observations from a re-analysis of the deposited data

Results flagged for a closer look

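In 33 of 364 groups of 5 libraries looked at for the named genes, 1 library stood apart from the other 4, with a gap over 0.71 of the group's range. Chance alone flags about 1 group in 20, and genes of 1 library are not independent. Maltodextrin replicate 5 accounted for 19 of these. It was the highest for Calm2 at 23800, Sep15 at 664, Sepw1 at 162, Stmn3 at 2880, Ndufa8 at 713, Gpx4 at 891 and Skp1 at 2810 normalised CPM. The same library was also high for Atp6v1d at 1400, Ldha at 2840, Eif4a1 at 826, Pdia6 at 457, S100b at 4440, Ctss at 700 and Rab3a at 1770 normalised CPM. The same library was also high for C1qc at 41.3 and Crym at 771 normalised CPM. It was the lowest for Nacc1 at 5.81, Bsn at 272 and Nr3c1 at 110 CPM. Maltodextrin replicate 1 was high for Shank1 at 19.8, Spata2L at 10.7 and Ttr at 29.8 CPM. Maltodextrin replicate 3 was low for Hspb1 at 4.32 CPM. Maltodextrin replicate 4 was high for Ifit1 at 1 CPM. Probiotics replicate 1 was low for Sulf1 at 22.3 CPM. Probiotics replicate 3 was high for Fam107a at 499 and low for Rpl5 at 542 CPM. Probiotics replicate 4 was low for Ctsf at 47.5 CPM. Probiotics replicate 5 was high for Rps19 at 43.6, Ppwd1 at 18.7, Dusp6 at 53.5, Slc5a12 at 3.38 and Nrn1 at 218 CPM.

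The effect of Probiotics differed between PLC and CGC for 4622 genes by the test of the difference, at an adjusted p under 0.05 in edgeR. The named genes given next were called with opposite signs in the 2 regions, and the values are the log2 effect in PLC minus that in CGC. It differed for Pvalb by -0.707, Arc by 1.87, Bdnf by -0.383, Eno1 by -1.36, Psmc4 by -0.751, Igf2 by 0.92 and Sh3gl2 by -0.497. It also differed for Rab3a by -0.757, Gabrd by -0.373, Calm3 by -0.867, Crym by -0.55, Lamp5 by -0.375 and Gad2 by -0.593. The effect of Probiotics differed between PLC and ILC for 3045 genes by the test of the difference, at an adjusted p under 0.05 in edgeR. The named genes given next were called with opposite signs in the 2 regions, and the values are the log2 effect in PLC minus that in ILC. It differed for Eno1 by -1.47, Rab3a by -0.85, Dusp1 by -0.65, Gabrd by -0.419, Calm3 by -0.95, Ifi27 by -0.544 and Cnp by -0.865.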

How the results depend on the processing

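With library totals alone, an alternative chosen after seeing the data, 5886 genes were higher and 851 lower, with 861 and 18 over 2-fold. With no filter 905 and 44 passed 2-fold, among genes of at least 5 CPM 231 and 18, and with Maltodextrin and Control pooled 101 and 14. RLE scaling gave 2970 higher and 2735 lower, and DESeq2 gave 2943 and 2721. Leaving out 1 library at a time gave 2718 to 3218 higher, 2181 to 2701 lower, 451 to 519 over 2-fold higher and 25 to 45 over 2-fold lower, the last without Probiotics replicate 5. Within PLC the replicate numbers gave no clear pairing of the Probiotics with the Maltodextrin libraries, though 5 pairs cannot exclude one. Correlations of same-numbered deviations ran from -0.00463 to 0.0552, beside -0.113 to 0.0896 for other numbers. Of the 5 Probiotics libraries, 2 correlated best with their own number. With a block for replicate number in the PLC fit, 3372 genes were higher and 2432 lower. The test between regions is another model. Without its terms for each replicate of each treatment, the effect differed for 4393 genes between PLC and CGC and for 2767 between PLC and ILC.

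Of 38 list counts of at least 5, 22 moved by over 1.5 times under library totals alone. Of 182 genes followed, 14 lost their call in at least 1 fit that left out 1 library. With their sign kept, 19 lost it under library totals alone and 20 with Maltodextrin and Control pooled, some genes being in more than 1 of these counts. Several changes turned sign, most of them small, and the cause was not tested. Arc and Hk1 had risen by 0.70 and 0.40. Under library totals alone these were Gad1 (0.197), Bdnf (0.0126), B2m (0.0586), Sh3gl2 (0.0278), Syt4 (0.0824), Cacna2d3 (0.00325), Gabra5 (0.0282), Gabrd (0.0503), Ifi27 (0.0118), Ifitm2 (0.00363), Cxcl12 (0.0899), Nr1d2 (0.000584), Lmo4 (0.0273), Slc1a3 (0.0362) and Fam107a (0.0357). With Maltodextrin and Control pooled they were Slc17a7 (-0.122), Arc (-0.0781), B2m (0.00108), Syt4 (0.0269), Gabra5 (0.0479), Gabrb1 (0.0733), Hk1 (-0.0731), Ifi27 (0.0425) and Cxcl12 (0.0303). Fos, not called, stood at -0.0253 under RLE, -0.0029 with no filter, -0.0195 in the 10 libraries alone and -0.0244 under DESeq2. Fkbp5, not called in the main fit, stood at -0.0125 under RLE, -0.0102 in the 10 libraries alone, -0.0128 under DESeq2 and -0.0245 without Maltodextrin replicates 3 and 4. Under library totals alone it was called higher, at 0.233 (edgeR adjusted p = 0.0054). Leaving out 1 library gave Gad1 from -0.0519 to 0.0111, Fos from -0.0961 to 0.0542 and Fkbp5 from -0.0474 to 0.0493. Total counts of 7706928 to 13045989 limit the precision for genes of few reads.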

Other observations

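Of 24 neuropeptide genes, 4 were higher and 4 lower in Probiotics than in Maltodextrin. Both shares were below the 27.4% higher and 19.6% lower over all genes. Cck, the abundant peptide of cortical neurons, averaged 2068 ± 450.4 CPM in Probiotics and 3216 ± 602 in Maltodextrin, a log2 change of -0.64 (edgeR adjusted p = 0.0012, n = 5 each). Tac1, Cort and Adcyap1 fell by 0.43, 0.59 and 0.27. Vgf and Chga, of dense-core vesicles, rose by 0.43 and 0.37, and Avp and Oxt, both at under 5 CPM, rose by 2.19 and 2.64. Sterol synthesis genes fell in 8 of 23 cases and rose in 5, or 2 and 10 under library totals alone, beside 19.6% lower and 27.4% higher over all genes. Fdps averaged 174 ± 8.97 and 233 ± 10.2 CPM, while Mvd averaged 31.4 ± 1.79 and 16.7 ± 0.826 CPM. Tight junction and barrier genes rose in 4 of 17 cases and fell in 0, beside 27.4% higher and 19.6% lower over all genes, so the share that rose was not above that of all genes. Those were Lrp1, a lipoprotein receptor, by 0.72, Lsr by 0.61, Abcb1a, a drug efflux pump, by 0.27 and Tjp1 by 0.25. These genes were singled out with their values in view.

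A few genes had libraries of different levels within a group. Rbm24, an RNA-binding protein gene, stood at 132 and 165 CPM in Maltodextrin replicates 1 and 4 and at 129 in Control replicate 4, against 8.29 to 13.3 in the other libraries of Probiotics, Maltodextrin and Control. Slc5a12, a lactate transporter gene, stood at 3.38 CPM in Probiotics replicate 5 and 0.0975 to 0.457 in the other Probiotics libraries, against 7.08 to 9.79 in Maltodextrin. In Control it stood at 5.6 and 4.56 in replicates 2 and 3 and at 0.211 to 0.415 in the others. Pdcd5 stood at 11.1 and 11.3 CPM in Control replicates 2 and 3 and at 2.88 to 3.88 in the other Control libraries, and Rps19 at 34.7 and 33.7 against 10.7 to 16.5.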
